A study of Mus musculus with 18 samples.

Results

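Polycomb repressive complex 1 (PRC1) is a family of chromatin complexes, and the 9 genes described here encode subunits of it: Ring1, Rnf2, Cbx2, Cbx7, Cbx8, Bmi1, Pcgf2, Pcgf6 and Kdm2b. They were taken as a named list and not by a rule on measured values, though the list was chosen with earlier results of these data known. All 9 were found among 17276 protein-coding mouse genes with a usable start site. Histone methylation was measured by chromatin immunoprecipitation and sequencing (ChIP-seq) in E14 cells, a line of pluripotent mouse embryonic stem cells grown in 2i/LIF medium, in which blockers of the kinases MEK and GSK3 and the cytokine LIF hold them undifferentiated. Amino acids in the medium carried light, medium or heavy isotopes, and the labels do not say which library had which. Of 18 libraries in 9 groups of 2 replicates, 10 came from untreated cells (H3K27me1, H3K27me2, H3K27me3, H3K36me2 and H3K36me3, with no spike-in). The other 8 came from cells kept for 7 days in 10 µM EPZ-6438, which blocks EZH2, the enzyme that methylates H3K27, or in the same volume of its solvent DMSO. In those 8 libraries H3K27me3 or H3K36me2 was precipitated from mouse chromatin that held Drosophila S2 chromatin at 0.05% of the total as an internal standard. The labels do not say whether replicates were separate cultures, so p-values measure the spread between these libraries, which may be technical.

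PRC1 complexes share a catalytic core made of RING1 or RNF2, which attaches ubiquitin to histone H2A, and one of several PCGF proteins that decides which complex is formed. Canonical complexes hold PCGF2 or BMI1 together with a CBX protein, whose chromodomain binds H3K27me3, the repressive mark written by PRC2 with EZH2 or EZH1 as its enzyme. Variant complexes lack a CBX reader: KDM2B, which binds unmethylated CpG sites and carries a demethylase domain for H3K36, recruits one of them, and PCGF6 defines another, which works with E2F6, MAX and MGA at germline genes. H3K36me3 is laid down over transcribed gene bodies, H3K36me2 in broad domains, and both are known to hinder PRC2.

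The start site of 8 of the 9 genes came from the RefSeq promoter table (GRCm38.p6), and the 250 bases upstream of 5 of them are shown. Of these 8 genes, Cbx8, Bmi1 and Kdm2b had the most H3K27me3 over the start site and Cbx7 the least, and Pcgf2, also low in H3K27me3, is shown for its few CG dinucleotides. CG dinucleotides, the sites that KDM2B-like CXXC domains bind when unmethylated, are in capitals, and each sequence runs 5′ to 3′ on the strand of its gene.
Cbx8 (chr11:119040914-119041163, minus strand): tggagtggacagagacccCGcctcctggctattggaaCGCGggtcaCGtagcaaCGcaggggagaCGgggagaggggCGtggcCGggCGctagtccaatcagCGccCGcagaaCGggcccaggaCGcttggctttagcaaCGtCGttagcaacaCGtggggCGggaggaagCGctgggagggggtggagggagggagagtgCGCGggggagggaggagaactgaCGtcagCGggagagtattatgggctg
Bmi1 (chr2:18676768-18677017, plus strand): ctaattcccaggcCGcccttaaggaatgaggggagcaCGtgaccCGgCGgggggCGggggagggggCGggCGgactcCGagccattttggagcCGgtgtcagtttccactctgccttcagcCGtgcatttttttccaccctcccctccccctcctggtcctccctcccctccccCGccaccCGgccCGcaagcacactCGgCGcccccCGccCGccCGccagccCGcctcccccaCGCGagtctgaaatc
Kdm2b (chr5:122989100-122989349, minus strand): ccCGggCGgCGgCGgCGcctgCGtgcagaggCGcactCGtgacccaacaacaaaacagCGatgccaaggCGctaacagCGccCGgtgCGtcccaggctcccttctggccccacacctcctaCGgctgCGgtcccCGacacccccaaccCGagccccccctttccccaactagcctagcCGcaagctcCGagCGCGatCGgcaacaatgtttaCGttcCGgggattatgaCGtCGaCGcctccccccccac
Cbx7 (chr15:79932647-79932896, minus strand): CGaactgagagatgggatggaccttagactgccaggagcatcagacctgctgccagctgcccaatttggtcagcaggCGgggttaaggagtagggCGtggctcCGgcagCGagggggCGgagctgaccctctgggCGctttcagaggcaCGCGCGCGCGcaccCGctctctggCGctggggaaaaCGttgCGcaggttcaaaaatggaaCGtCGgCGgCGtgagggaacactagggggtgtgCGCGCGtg
Pcgf2 (chr11:97699649-97699898, minus strand): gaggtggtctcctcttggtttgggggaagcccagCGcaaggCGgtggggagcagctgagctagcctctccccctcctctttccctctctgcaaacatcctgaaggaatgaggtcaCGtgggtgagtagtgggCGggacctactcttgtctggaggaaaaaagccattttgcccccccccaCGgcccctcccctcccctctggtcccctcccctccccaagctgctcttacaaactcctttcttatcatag

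The number of CG dinucleotides differed between the low-H3K27me3 promoters. The Cbx8 sequence held 22, that of Bmi1 21 and that of Kdm2b 27, and the Cbx7 sequence, which carried almost no H3K27me3, held 23. The Pcgf2 sequence, which lies inside the gene record since that runs 2.79 kb upstream of the start site used, held 5, the fewest of the 8 genes, beside a median of 10 over 21045 RefSeq promoters of the same length. Ring1 had 30, Rnf2, another gene low in H3K27me3, 20 and Pcgf6 14. Kdm2b has 4 start sites in the table, and the inner promoter at chr5:122900368-122900617 held 36. The letters CACGTG, the E-box bound by MYC-like and MAX-like factors, read the same on both strands and occurred in the Bmi1, Cbx8 and Pcgf2 sequences and in 6.70% of all promoters.

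Levels in untreated cells are given as multiples of the mean 1 kb window of the same library, for each of the 2 replicates. The start-site value covers the 2 windows within 1 kb of the start site, and the body value covers the rest of the gene. Libraries held 22.9 to 67.5 M window reads in untreated cells (1 M is 1000000), where a read that spans 2 windows counts in each. At the start sites, H3K27me3 split the PRC1 genes. Cbx8 had 3.88 and 3.94 times the library mean, Cbx2 3.29 and 4.03, and Bmi1 3.37 and 3.33, which placed all of them between the 80th and the 83rd percentile of genes. The values of Cbx2 overlapped those of both others, while both Cbx8 values lay above both Bmi1 values. Kdm2b followed with 2.24 and 1.5. Ring1 had 0.980 and 0.844, Pcgf6 0.392 and 0.797, Pcgf2 0.392 and 0.375, and Rnf2 0.196 and 0.187. Cbx7 was lowest with 0.0392 and 0.141, which rested on 1 and 3 window reads. In all, 4 of 9 PRC1 subunit genes lay above the library mean, as did 38.2% of all genes. With the windows shifted by 500 bp the levels of Cbx8 and Cbx2 were 2.48 and 2.31, that of Bmi1 4.48, so that Bmi1 came first, that of Kdm2b 0.951 and that of Ring1 1.15, so that Kdm2b fell below the library mean and Ring1 rose above it. At the inner Kdm2b start site H3K27me3 was 0.431 and 1.22.

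**Figure D1:**
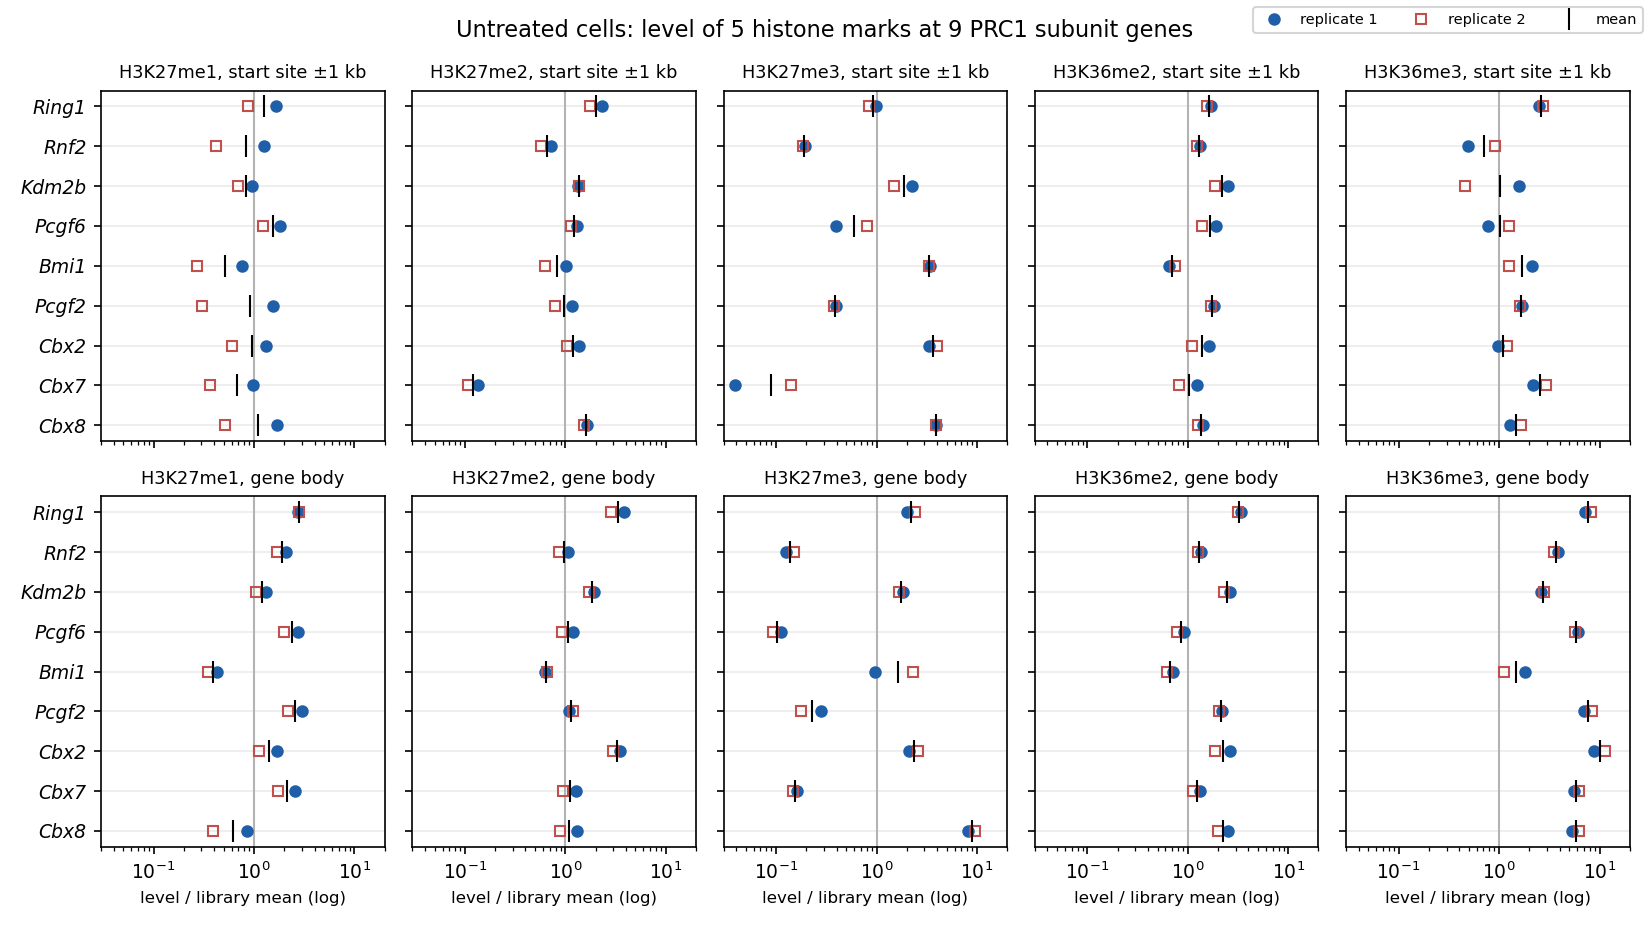
Level of 5 histone marks at the 9 PRC1 subunit genes in untreated cells, as multiples of the library mean on a log axis, at the start site (top row) and in the gene body (bottom row). Filled circles are replicate 1, open squares replicate 2 and black ticks their mean. Body H3K36me3 lay above 1 at all 9 genes, while H3K27me3 ranged from 0.0899 to 3.91 at start sites.

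Inside the genes the contrast was wider. Cbx8, a reader whose gene spans 4.61 kb on chromosome 11 (chr11:119036303-119040913), had 8.16 and 9.56 times the library mean of H3K27me3 in its body, the 98th percentile of genes. Cbx2 had 2.10 and 2.58, Ring1 2.01 and 2.44, Kdm2b 1.85 and 1.68. Bmi1 had 0.976 and 2.32, so its replicates fell on both sides of the library mean. The bodies of Pcgf2 (0.278 and 0.179), Cbx7 (0.163 and 0.147), Rnf2 (0.127 and 0.151) and Pcgf6 (0.113 and 0.0937) held little H3K27me3 in both replicates. CBX7 is the main CBX reader of embryonic stem cells, RNF2 their main catalytic subunit, and PCGF2 and PCGF6 belong to different complexes, so genes of canonical and of variant complexes stood on both sides.

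H3K36me3 lay above the library mean in the bodies of 9 of 9 PRC1 genes, against 63.8% of 17276 genes. That share counts genes without a body window as not above, so it is lower than the share of measured bodies. Over the 15554 measured bodies the median was 2.07, and 8 of 9 PRC1 genes lay above it. Cbx2 was highest with 8.77 and 11.3 times the library mean, at the 97th percentile of genes. Ring1 had 7.10 and 8.31, and Pcgf2 6.99 and 8.34, both at the 91st percentile. Pcgf6 had 6.10 and 5.66, Cbx7 5.54 and 6.21, and Cbx8 5.38 and 6.2, and these 3 overlapped. Rnf2 had 3.87 and 3.55 and Kdm2b 2.62 and 2.81. Bmi1 was lowest with 1.83 and 1.11, at the 40th percentile. The bodies of Cbx2, Cbx8, Ring1 and Kdm2b thus carried both H3K36me3 and H3K27me3 above the library mean in both replicates. These are means over whole bodies, so the marks may lie in different stretches of a gene. The deposited H3K27me3 peaks covered 84.6% of the Cbx2 record, 100% of Cbx8, 51.4% of Ring1 and 38.4% of Kdm2b. Whether the 2 marks overlapped within these genes was not tested. Whether both marks sat on the same chromosomes cannot be told apart from a mixture of cells.

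The other marks separated single genes. Ring1, the paralogue of the catalytic subunit Rnf2, spans 3.89 kb (chr17:34020792-34024680) and had body H3K27me2 of 3.85 and 2.83 times the library mean, H3K27me1 of 2.74 and 2.82 and H3K36me2 of 3.36 and 3.18. Cbx2 came beside it in body H3K27me2 with 3.52 and 3.01, and both stood at the 99th percentile of genes. Rnf2 (chr1:151469398-151500991) had H3K27me2 of 1.07 and 0.869 and H3K36me2 of 1.34 and 1.26, lower than Ring1 in both replicates of both marks. Bmi1 (chr2:18677018-18686629) had the lowest body level of the 9 genes in H3K27me1 (0.429 and 0.349), H3K27me2 (0.627 and 0.654) and H3K36me2 (0.707 and 0.620). At start sites H3K27me1 differed between the replicates by more than it differed between most genes, with 1.69 and 0.513 at Cbx8 and 1.54 and 0.302 at Pcgf2, so no order of the genes was read from it. Cbx7 (chr15:79915804-79971143) had the lowest start-site H3K27me2 of the 9 (0.134 and 0.107, 5 window reads in each library). Its start-site H3K36me3 (2.2 and 2.93) overlapped that of Ring1 (2.49 and 2.76), and both lay above the other 7 genes in both replicates. The RefSeq record of Cbx7 runs 38.5 kb upstream of the start site used, and its body value includes that stretch.

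H3K36me2 at the start sites was highest at Kdm2b, the H3K36 demethylase gene itself, with 2.54 and 1.88 times the library mean at the most upstream start site. At its inner start site the values were 1.44 and 1.10, below Pcgf2 and Ring1 in both replicates. With the windows shifted by 500 bp its mean was 1.51, above Pcgf2 (1.23) and still below Ring1 (1.62). Pcgf2 (1.82 and 1.69), Pcgf6 (1.91 and 1.39), Ring1 (1.72 and 1.56), Cbx2 (1.64 and 1.10), Cbx8 (1.42 and 1.26) and Rnf2 (1.33 and 1.23) followed in the order of their means, and most neighbours in this order overlapped. Cbx7 had 1.23 and 0.811. Bmi1 was lowest with 0.644 and 0.746, below every other of the 9 in both replicates. On the shifted windows Kdm2b (2.26) stayed highest and Bmi1 (0.335) lowest, but the order between them changed. Pcgf2 (1.23) then lay below Cbx2 (1.65) and Cbx8 (1.41), and Rnf2 (0.796) below Cbx7 (1.17) and the library mean. Of the PCGF genes, Pcgf2 (chr11:97688821-97702434) had body H3K36me2 of 2.2 and 2.04, Pcgf6 of 0.913 and 0.786 and Bmi1 of 0.707 and 0.620, a different order from that of H3K27me3. H3K27me1 in the bodies was 3 and 2.16 at Pcgf2 and 2.74 and 2.00 at Pcgf6, both above the library mean, and Cbx8 had 0.856 and 0.392, below it.

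The deposited peak lists, which hold 1 set of replicated peaks per mark, gave the extent of these domains. An interval counted as covered where at least 50% of its bases lay in peaks. For peaks the body is the whole gene record, start site included, unlike the body of the levels above. H3K27me3 peaks covered the start sites of 3 of 9 PRC1 genes (Cbx2, Cbx8 and Bmi1), against 30.6% of all genes. The Bmi1 peak was 6.50 kb long (chr2:18675501-18682000). The Cbx2 start site lay in a peak of 239.5 kb and that of Cbx8 in the next one, of 151.5 kb. H3K36me2 peaks covered 6 of 9 start sites (50.0% of all genes), and Bmi1 and Cbx7 had no H3K36me2 peak base within 1 kb of the start. Kdm2b (chr5:122870664-122989270) had its start site in an H3K36me2 peak of 247 kb. H3K36me2 peaks together covered 90% of its body, and H3K27me2 peaks 84.5%. H3K27me1 peaks covered the bodies of 5 of 9 genes (41.4% of all genes), among them 93.7% of the bases of Rnf2 and 100% of those of Pcgf6 (chr19:47033617-47050939).

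Cbx2 and Cbx8 lie side by side on chromosome 11. The Cbx2 record (chr11:119023019-119031275) has no entry in the promoter table, and its start site was taken as the low-coordinate end of the record from background knowledge of its strand. With the other end as the start site, an alternative chosen after seeing the data, H3K27me3 was 1.18 and 1.97 times the library mean instead of 3.29 and 4.03, H3K27me2 was 2.90 and 2.32, and H3K36me3 was 5.43 and 7.87. The Cbx2 start-site values therefore rest on that choice. A non-coding gene, Gm35829, overlaps the low-coordinate end used here, so reads there cannot be given to either gene alone. Within 50 kb of the Cbx2 start the other protein-coding genes are Cbx8 and Enpp7, which encodes an intestinal sphingomyelinase. The 2 H3K27me3 peaks are parted by a gap of 2 kb at the far end of Cbx2 (chr11:118790501-119030000 and chr11:119032001-119183500), while 1 H3K36me2 peak of 273 kb spans both genes.

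Along this stretch the marks changed places within a few kilobases. From 10 to 2 kb upstream of Cbx2, H3K27me3 was 6.79 ± 0.641 (SD, n = 2) times the library mean and H3K27me2 1.04 ± 0.0126. Over the Cbx2 body H3K27me3 was 2.34 ± 0.346, H3K27me2 3.26 ± 0.356 and H3K36me3 10.0 ± 1.79. Between Cbx2 and Cbx8 H3K27me3 was 5.94 ± 0.0335 and H3K36me3 2.77 ± 0.179. Over the whole Cbx8 gene, H3K27me3 was 7.45 ± 0.839 and H3K36me3 4.98 ± 0.461. H3K27me3 was thus lower over the Cbx2 body than on either side of it in both replicates, and H3K27me2 and H3K36me3 were higher there.

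**Figure D2:**
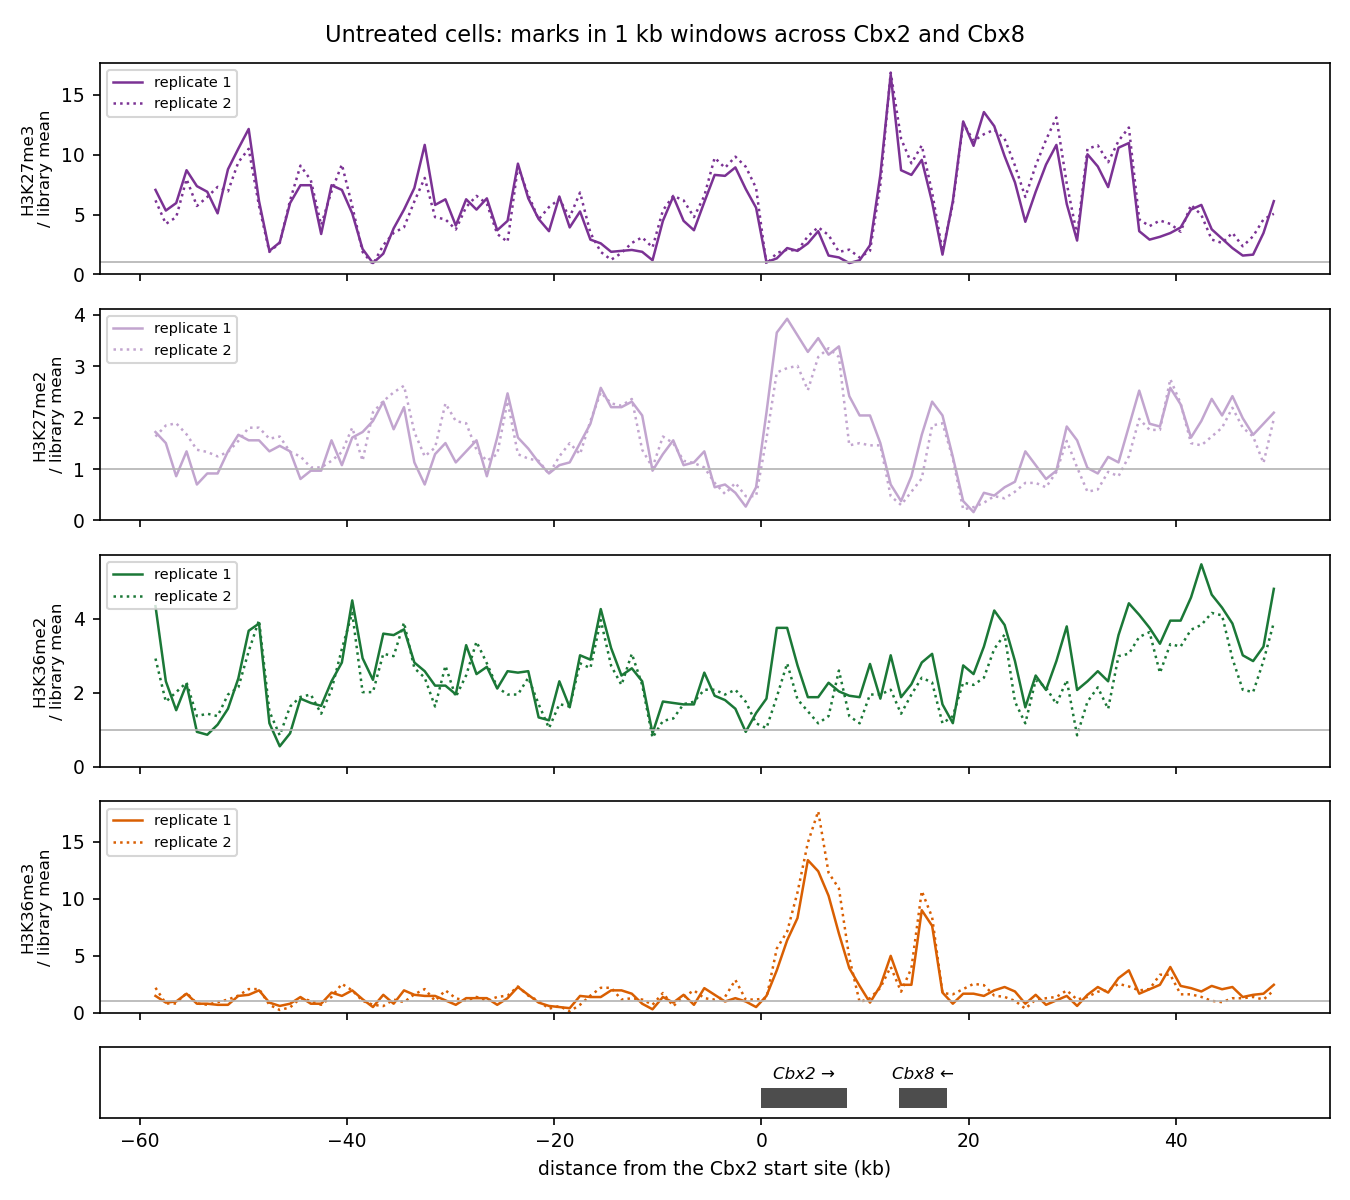
H3K27me3, H3K27me2, H3K36me2 and H3K36me3 in untreated cells in 1 kb windows across the Cbx2 and Cbx8 genes, as multiples of the library mean (grey line: 1), against the distance from the Cbx2 start site in kb. Solid and dotted lines are the 2 replicates, and bars at the bottom are the genes with their direction. H3K27me3 dips over the Cbx2 body, where H3K27me2 (3.26) and H3K36me3 (10.0) peak.

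Markers of the cell type were read as chromatin. All 8 stem-cell marker genes with a start site, of 10 listed, had body H3K36me3 above the library mean (4.71 to 15.5), and 1 of them had start-site H3K27me3 above it (6.23). All 4 usable lineage markers of 10 listed had start-site H3K27me3 above it (8.53 to 16.8), higher than at any of the 9 PRC1 genes, and 3 of the 4 had body H3K36me3 above it (0.523 to 2.41 over the 4). Among 27 usable further PRC1 genes, 8 had start-site H3K27me3 above the library mean, against 38.2% of all genes, with a median of 0.188 beside 0.470. The highest were Pcgf5 (10.0 ± 0.101, SD, n = 2), a PCGF protein of another variant complex, E2f6 (4.14 ± 0.687), a partner of PCGF6, and Bcor (3.92 ± 0.111), a partner in the KDM2B complex. Body H3K36me3 was above the library mean at 26 of these 27, against 63.8% of 17276 genes, where genes without a body window count as not above. The median of the 27 was 5.44, beside 2.07 over the 15554 measured bodies.

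Over the 10 untreated values (5 marks at start site and body), the gene with the most similar pattern among 15554 genes was Rnf166 for Ring1, Hpf1 for Rnf2, Fhod1 for Cbx2, Trp53 for Cbx7 and Plekhh3 for Cbx8. For Bmi1 it was Tex13d, for Pcgf2 Bag3, for Pcgf6 Ppt1 and for Kdm2b Chst10. Likeness was the Euclidean distance between log2 levels, from 0.54 for Kdm2b to 1.3 for Bmi1, against median distances to all genes of 4.18 to 6.04. Among the PRC1 genes themselves the closest pair was Pcgf2 and Pcgf6 (1.84) and the most distant Cbx7 and Cbx8 (7.67), both CBX readers.

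The quantitative libraries addressed how far 7 days of EZH2 inhibitor changed H3K27me3. Levels on the spike-in scale are reads per 1 kb window times the factor that the authors applied, taken here to be their Drosophila factor. Across the genome the mean window held 48.7 and 35.7 scaled reads in DMSO and 0.0911 and 0.0668 after the inhibitor. Scaled H3K27me3 reads fell at the start sites of 9 of 9 PRC1 genes (limma, Benjamini-Hochberg adjusted p under 0.05), as they did at 99.2% of all 14136 genes tested. They fell in the bodies of 9 of 9 as well, and in 99.9% of 14814 bodies. No gene rose in either comparison (0%). A fall on this scale is therefore not particular to PRC1 genes, and ChIP of a cell population does not tell fewer marked cells from less mark per cell. The factor per read was 5.943 and 3.37 in DMSO and 0.242 and 0.099 after the inhibitor. Start sites with few DMSO reads, such as Cbx7 (5) and Rnf2 (10), were called as well. A fall of the mark cannot be told there from the smaller factor on background reads.

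At start sites the Cbx8 promoter held 339 and 217 scaled reads in DMSO and 0.363 and 0.346 after the inhibitor. Bmi1 held 273 and 202 against 0 and 0.297, Cbx2 244 and 207 against 0.484 and 0.346, and Kdm2b 169 and 136 against 0.121 and 0.297. On these windows they are the 4 genes with the most H3K27me3 at the start site in untreated cells. Both inhibitor values lay below both DMSO values at 9 of 9 PRC1 start sites, as at 99.2% of all 14136 genes tested. Ring1 held 74.3 and 87.6 against 1.09 and 0.247, Pcgf2 47.5 and 28.6 against 0.121 and 0.247, and Pcgf6 32.7 and 13.5 against 0.121 and 0.099. Rnf2 held 11.9 and 10.1 against 0.121 and 0.099, and Cbx7 2.97 and 6.74 against 0.363 and 0.247. Cbx7 had the lowest DMSO level, from 1 and 4 window reads, against 3 and 5 after the inhibitor, where each read stands for 0.242 or 0.099 scaled reads instead of 5.943 or 3.37.

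**Figure D3:**
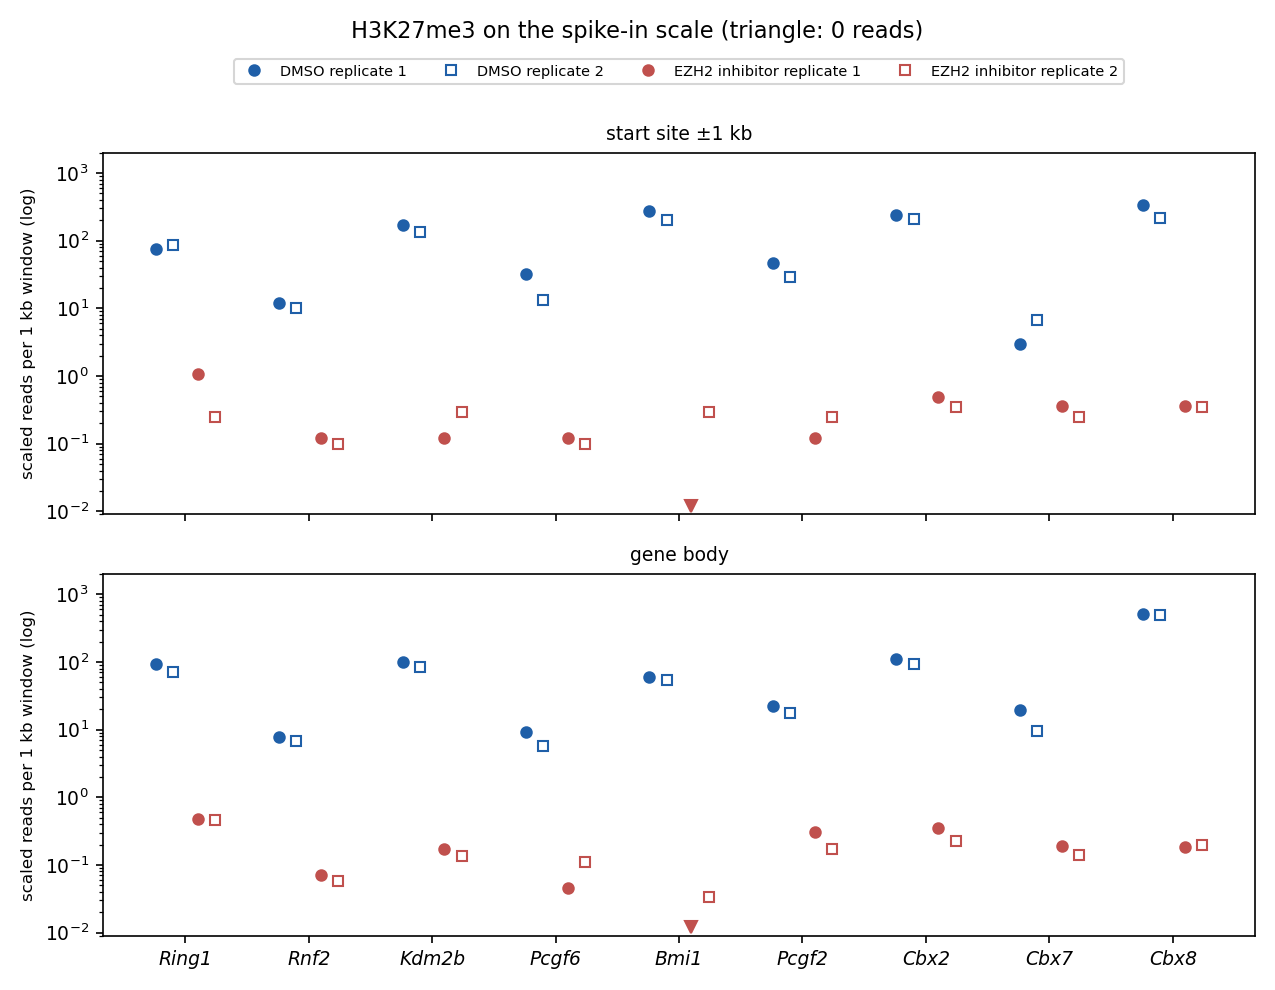
H3K27me3 on the spike-in scale (scaled reads per 1 kb window, log axis) at the start site (top) and in the body (bottom) of the 9 PRC1 genes. Blue marks are the 2 DMSO and red marks the 2 EZH2 inhibitor libraries, and a triangle marks a library with 0 reads. Every inhibitor library lies below both DMSO libraries at all 9 genes, as at 99.2% of all start sites and in 99.95% of all bodies tested. Cbx8 has the highest DMSO body level (507).

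In the gene bodies the DMSO levels spread more widely. Cbx8 held 519 and 495 scaled reads per window in DMSO and 0.181 and 0.198 after the inhibitor, the highest DMSO body level of the 9. Cbx2 held 110 and 92.0 against 0.346 and 0.226, Kdm2b 101 and 83.3 against 0.172 and 0.135, and Ring1 93.1 and 70.8 against 0.484 and 0.462. Bmi1 held 59.4 and 53.5 against 0 and 0.033, so that its replicates were close in DMSO where they had differed in untreated cells. Pcgf2 held 22.2 and 17.5 against 0.308 and 0.171, and Cbx7 19.2 and 9.6 against 0.192 and 0.140. Pcgf6 (9.29 and 5.69) and Rnf2 (7.86 and 6.74) were lowest in DMSO, with 0.0454 and 0.111 and with 0.0703 and 0.0575 after the inhibitor. The 4 genes with little H3K27me3 in untreated bodies were again the lowest 4 in DMSO.

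The size of the fall rested on few reads, since the inhibitor libraries held 0.992 and 1.78 M window reads against 21.6 and 27.9 M in DMSO. Pooled over replicates, the Cbx8 body was 2605-fold lower after the inhibitor (95% counting interval 1449 to 5236), from 936 window reads in DMSO to 11. The Bmi1 body was 2377-fold lower (803 to 11611), with 3 inhibitor reads. Kdm2b, whose long body gave 242 inhibitor reads, was 616-fold lower (542 to 704). Cbx2 was 377-fold lower in its body (252 to 586), Ring1 168-fold (104 to 286) and Rnf2 117-fold (75.8 to 186). Pcgf2 was 90.9-fold lower (60.7 to 139), Cbx7 84.2-fold (68.0 to 105) and Pcgf6 75.8-fold (44.9 to 132). The Pcgf6 body had 3 and 18 reads in the inhibitor libraries (0.0454 and 0.111 scaled reads per window). Its fold and its place in this order therefore depend on the library. The exact conditional intervals given for these folds cover counting error only, and a read that touches 2 windows makes them too narrow.

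In the fit across all genes, which used log2(scaled reads + 1), the body of Cbx8 fell by 8.74 ± 0.21 (SE, limma adjusted p = 1.24e-07), the largest fall of the 9 and within the lowest 0.115% of genes. Bmi1 fell by 5.82 ± 0.21, and Pcgf6, with the smallest fall, by 2.94 ± 0.27. The median difference was −5.80 over the 9 bodies and −4.72 over all genes. At start sites Cbx7 fell by 2.09 ± 0.39 and Bmi1 fell by 7.70 ± 0.32, the ends of the range, and the median was −5.66 beside −5.33 over all genes. With inhibitor levels near 0, a difference on this scale can be no larger than the DMSO level allows. In bodies Cbx8 had both the highest DMSO level and the largest difference. At start sites the mean DMSO level was 278 at Cbx8 and 238 at Bmi1, while Cbx8 fell by 7.65 ± 0.33, slightly less than Bmi1. Whether the DMSO level sets the order of the genes was not tested. Among the further PRC1 genes, 24 of 26 start sites and 27 of 27 bodies fell.

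The reads that remained after the inhibitor were spread differently over the genes. Relative to the mean window of each library, the Cbx8 body went from 10.7 and 13.9 in DMSO to 1.99 and 2.96, a fall of 2.11 on the log2 scale (SE 0.25, limma adjusted p = 0.0125). It was the only one of 9 PRC1 genes with a lower body level by this test, which called 9.75% of all genes. Higher relative levels were called in 4 of 9 PRC1 bodies, against 34.4% of genes. Cbx7 went from 0.394 and 0.269 to 2.10 and 2.10 (log2 difference 1.65 ± 0.14), Pcgf2 from 0.455 and 0.489 to 3.38 and 2.56 (1.83 ± 0.17), Ring1 from 1.91 and 1.98 to 5.31 and 6.92 (1.42 ± 0.18) and Rnf2 from 0.161 and 0.189 to 0.771 and 0.860 (0.96 ± 0.13). Their adjusted p-values in limma were 0.0118, 0.0118, 0.0128 and 0.0137. On the spike-in scale all 4 had fallen, as given above: a higher relative level means that their reads fell by a smaller fold than the library mean. The 18 libraries include no input or control precipitation. Remaining reads that are not due to H3K27me3 can therefore not be told from the mark.

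The other 4 bodies did not pass this test. Bmi1 went from 1.22 and 1.5 to 0 and 0.494, on 3 inhibitor reads where the library mean would give 9.46 (log2 difference −1.40, limma adjusted p = 0.0528). Cbx2 went from 2.25 and 2.58 to 3.79 and 3.39, and Pcgf6 from 0.191 and 0.159 to 0.498 and 1.67. Kdm2b, the gene with the most reads, went from 2.07 and 2.33 to 1.88 and 2.01, a pooled ratio of 0.887 (95% counting interval 0.776 to 1.01). Cbx8 and Cbx2, neighbours on chromosome 11, had pooled ratios of 0.210 (0.104 to 0.377) and 1.45 (0.934 to 2.17), whose intervals, for counting error only, do not overlap. With the windows shifted by 500 bp the Cbx2 body difference turned from 0.49 to −0.085 on the log2 scale (limma adjusted p = 0.0599 and 0.751), while Cbx8 was still called lower. As a plain comparison of libraries, both values after the inhibitor exceeded both DMSO values in 6 of 9 bodies (51.3% of all genes) and fell short of them in 3 of 9 (27.5%). When either DMSO library was left out, limma called 0 genes on this scale and all 5 PRC1 calls were lost, at adjusted p of 0.191 to 0.198. The log2 differences themselves stayed of similar size, at −2.29 and −1.92 for Cbx8, 1.76 and 1.54 for Cbx7, 1.80 and 1.85 for Pcgf2, 1.40 and 1.44 for Ring1 and 0.93 and 0.99 for Rnf2. When either inhibitor library was left out, so that the lone one is assumed to vary like the DMSO pair, 10808 or 10985 genes were called, and Bmi1, Cbx2 and Pcgf6 joined the calls. On the shifted windows Rnf2 lost its call (adjusted p = 0.0680) and Pcgf6 gained one (0.0412).

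**Figure D4:**
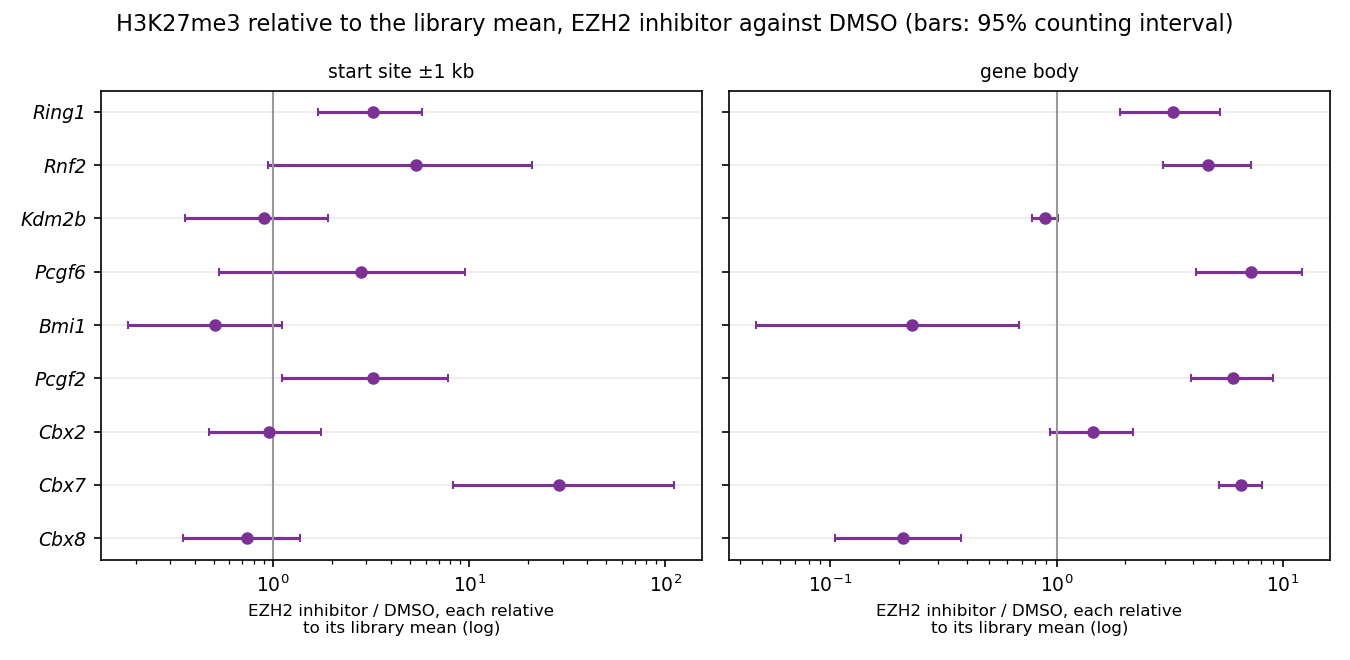
Ratio of H3K27me3 after EZH2 inhibitor to DMSO, each relative to its library mean and pooled over 2 replicates, on a log axis, at the start site (left) and in the body (right) of the 9 PRC1 genes. Bars are 95% counting intervals, which leave out the spread between replicates, and the grey line is a ratio of 1. Of the bodies that limma called, Cbx8 (0.210) lies left of the line. Ring1 (3.25), Rnf2 (4.68), Pcgf2 (6.02) and Cbx7 (6.49) lie right of it. Bmi1 (0.230, left) and Pcgf6 (7.21, right) were not called.

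At start sites the relative levels rested on few reads. At the library mean, the 2 windows of a start site hold 2.10 reads over both inhibitor libraries together. The pooled 95% counting intervals of the ratio lay above 1 at Cbx7 (8.24 to 111), Ring1 (1.70 to 5.79) and Pcgf2 (1.11 to 7.85). They included 1 at the rest of the 9 genes, and they cover counting error only. Limma called 0 of 14136 genes (0%) on this scale, with 4815 at an unadjusted p under 0.05, and 0 of 9 PRC1 genes. The count rose to 1440 with no filter on low values, with Cbx7 and Rnf2 called higher (limma adjusted p = 0.0444 and 0.0469), and to 10105 or 10755 when 1 inhibitor library was left out. Both values after the inhibitor exceeded both DMSO values at 5 of 9 PRC1 start sites (34.2% of all genes) and fell short of them at 2 of 9 (29.7%). The 2 were Bmi1, from 5.62 and 5.66 to 0 and 4.45, and Cbx8, from 6.96 and 6.09 to 3.98 and 5.19. Cbx7 had the largest difference, from 0.0611 and 0.189 to 3.98 and 3.70 (log2 difference 2.80 ± 0.32, limma adjusted p = 0.0643), on 5 DMSO and 8 inhibitor reads.

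In the further PRC1 genes limma called higher relative H3K27me3 in 18 of 27 bodies and lower in 1, against 34.4% and 9.75% of all genes. As for the 9 genes above, no call was left when either DMSO library was left out.

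H3K36me2, the mark that KDM2B-type enzymes remove, was measured in the same design with far more reads, 50.5 to 112 M window reads a library. On the spike-in scale limma called no difference at the 9 PRC1 start sites or bodies, and none had an unadjusted p under 0.05 (the lowest was 0.433, at the Bmi1 start site). Of all genes, 0.413% were called higher and 0.018% lower among 16710 start sites, and 0.118% higher and 0.00654% lower among 15301 bodies. These 72 and 19 calls became 18 and 5 without DMSO replicate 2, 112 and 57 without EZH2 inhibitor replicate 2, and 0 and 0 in limma-voom or with no filter on low values. At 9 start sites the log2 differences lay between −0.39 at Pcgf6 and 0.46 at Bmi1, with a standard error of 0.58 at each. Bodies lay between −0.13 at Ring1 and 0.11 at Cbx8, with a standard error of 0.49. The fit gave each of these genes the same standard error, whatever its own replicates. The DMSO body values were 301 and 301 at Pcgf6 and 203 and 96.3 at Bmi1. It is thus a spread shared over genes and not that of a single gene. Differences of the size seen here are within those shared errors, and a p that misses the threshold does not show that the levels were equal.

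Kdm2b had the highest start-site H3K36me2 of the 9, with 712 and 472 scaled reads in DMSO and 819 and 469 after the inhibitor. Its inner start site had 470 and 272 against 362 and 318, below Ring1 (606 and 383 against 581 and 432). Ring1 had the highest body level, with 939 and 748 against 943 and 626. At these Kdm2b and Ring1 intervals replicate 1 exceeded replicate 2 within each treatment, by more than the treatment means differed. The Bmi1 start site, lowest in H3K36me2, had 157 and 144 in DMSO and 233 and 183 after the inhibitor. It was the only one of 9 where both values after the inhibitor exceeded both DMSO values, as at 7.5% of all start sites. None lay below (2.15% of all genes), and no PRC1 body lay above (7%) or below (1.1%). The Bmi1 difference rested on 57 window reads in DMSO and 83 after the inhibitor (log2 difference 0.46 ± 0.58, limma adjusted p = 1.00).

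Relative to the library mean, which removes the spike-in factor, limma called 0 genes of all tested for H3K36me2 (0%), with 2690 start sites and 2460 bodies at an unadjusted p under 0.05. Pcgf6 had the largest start-site difference of the 9, from 1.72 and 1.59 in DMSO to 0.966 and 1.24 after the inhibitor (log2 difference −0.43 ± 0.15, limma adjusted p = 0.224, unadjusted p = 0.00959). Rnf2 came next, from 1.08 and 1.15 to 0.672 and 0.881 (−0.34 ± 0.15, limma adjusted p = 0.283). Both inhibitor libraries lay below both DMSO libraries at 4 of 9 start sites (Kdm2b, Pcgf2, Pcgf6 and Rnf2), against 38.5% of all genes, and in 3 of 9 bodies (Kdm2b, Ring1 and Rnf2), against 36.6%. None lay above them, against 11.3% of start sites and 16.1% of bodies. The median of all genes on this scale was −0.12 at start sites and −0.09 in bodies, and that of the 9 PRC1 genes was −0.11 and −0.14.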

How the data were processed

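ChIP-seq of 5 histone marks was measured in E14 cells in 18 libraries, grouped by their labels. The deposited tracks hold log2 values made by the authors in 1 kb windows every 500 bp. Every value equals log2(1 + whole reads × 1 factor per library) at a tolerance of 0.02. In untreated tracks the factor gives reads per 1000000 (RPM). In the quantitative tracks it is treated as a Drosophila spike-in factor of the authors, whose derivation is not given in the sources used here. The submitters' processing notes name mm10, dm3, Trim Galore 0.4.2, Bowtie2 2.2.6.2 and SICER. The deposited peak lists carry a score per peak from the authors, used only to rank peaks.

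Reads were recovered and averaged over non-overlapping windows (2633787 on autosomes and X). A window belonged to an interval with at least 500 bp inside it. Gene records and start sites came from RefSeq GRCm38.p6, with the most upstream start site used. The Cbx2 start site rests on background knowledge of its strand. Genes with at least 10 window reads over the 4 libraries of a mark were fitted with limma 3.58.1 (R 4.3.3; lmFit, eBayes, no covariate) on log2(scaled reads + 1) or log2(level relative to the library mean + 0.5). Benjamini-Hochberg adjustment covered all genes tested, and calls had adjusted p under 0.05. The scripts were tested on simulated data. Alternatives were the pseudocount (0.1), the filter, the window grid, a replicate block, each library left out, limma-voom and other peak rules.

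The 9 members and the other lists were chosen with earlier results of these data known. Named were the 9 members, the 3 further PRC1 genes with the most start-site H3K27me3, any further PRC1 gene called where 5 or fewer were, protein-coding genes within 50 kb of the Cbx2 start and the most alike gene of each member. Gm35829 was named after its position was seen. Of 32 further PRC1 genes listed, 27 had a start site. 1 of them is not reported here by name.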

Additional observations from a re-analysis of the deposited data

How the results depend on the processing

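On the spike-in scale, H3K27me3 stayed lower at the start sites and bodies of all 9 PRC1 genes under every alternative run (pseudocount, filter, window grid, replicate block, each library left out, limma-voom). Counts over all genes moved more elsewhere, and the cause was not tested. For H3K27me3 relative to the library mean, start-site calls went from 0 to 1440 with no filter, and leaving out 1 library gave 0 to 10755 at start sites and 0 to 10985 in bodies. For H3K36me2 on the spike-in scale the 72 start-site and 19 body calls became 0 and 0 with no filter and 0 and 0 in limma-voom, and ranged from 18 to 112 and from 5 to 57 with 1 library left out. Relative to the library mean, start-site H3K36me2 calls ranged from 0 to 16 with 1 library left out. Covered members rose with 1 base in a peak as the rule, and so did the share of all genes. At start sites they rose from 1 to 3 for H3K27me1 (all genes 25.6% to 34.0%) and 2 to 5 for H3K27me2 (30.3% to 39.9%). H3K27me3 start sites rose from 3 to 5 (30.6% to 34.9%) and H3K36me2 start sites from 6 to 7 (50.0% to 57.9%). Bodies rose from 5 to 7 for H3K27me1 (41.4% to 62.7%) and 3 to 6 for H3K27me2 (42.3% to 59.9%). H3K27me3 bodies rose from 4 to 5 (26.2% to 42.9%) and H3K36me2 bodies from 6 to 8 (47.1% to 66.8%).

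Replicate numbers are shared between DMSO and inhibitor libraries, but no label says that they mark pairs, and 2 pairs are few. The replicate differences of the 2 treatments correlated across genes at 0.0221 and 0.0773 for H3K27me3. For H3K36me2 they correlated at 0.195 (start sites) and 0.738 (bodies). Same-numbered H3K36me2 libraries thus deviated together in bodies, and the reason was not tested. With a replicate block the calls for H3K36me2 were 6 at start sites and 1653 in bodies on the spike-in scale and 490 at start sites relative to the library mean. Those for H3K27me3 bodies relative to the library mean were 4928. Under the block the Bmi1 body, at −1.40, was also called lower in relative H3K27me3 (limma adjusted p = 0.0396), and no PRC1 gene was called for H3K36me2.

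Some log2 differences changed sign, and none of them had passed the test. With windows shifted by 500 bp, H3K27me3 relative to the library mean went from −0.036 to 0.50 at the Cbx2 and from −0.46 to 0.96 at the Kdm2b start site, and from 0.49 to −0.085 in the Cbx2 body. H3K36me2 on the spike-in scale was then −0.12 at the Ring1 and −0.045 at the Kdm2b start site and −0.014 in the Cbx2 body. With the other end of the Cbx2 record as its start, an alternative chosen after seeing the data, it was 0.030 at the start site. With 1 library left out, H3K27me3 relative to the library mean ranged from −0.13 to 0.062 at the Cbx2 and from −1.18 to 0.25 at the Kdm2b start site. Start-site H3K36me2 on the spike-in scale ranged from −0.25 to 0.012 (Cbx2), −0.28 to 0.47 (Cbx7), −0.35 to 0.56 (Cbx8), −0.30 to 0.50 (Kdm2b), −0.48 to 0.29 (Pcgf2) and −0.27 to 0.38 (Ring1). In bodies it ranged from −0.58 to 0.72 (Bmi1), −0.13 to 0.20 (Cbx2), −0.12 to 0.28 (Cbx7), −0.11 to 0.32 (Cbx8), −0.34 to 0.41 (Kdm2b), −0.065 to 0.21 (Pcgf2), −0.32 to 0.11 (Pcgf6), −0.42 to 0.17 (Ring1) and −0.35 to 0.29 (Rnf2). Relative to the library mean it ranged from −0.19 to 0.053 (Cbx8) and −0.27 to 0.043 (Ring1) at start sites, and in bodies from −0.19 to 0.055 (Bmi1), −0.42 to 0.15 (Cbx2), −0.26 to 0.071 (Cbx7), −0.29 to 0.13 (Cbx8) and −0.34 to 0.12 (Pcgf2). The depth of the inhibitor H3K27me3 libraries limits every start-site value there.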
